A study of Mus musculus with 9 samples.

Results

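Collagens are the main structural proteins of the extracellular matrix, and 42 genes for collagen chains were followed here in mouse embryonic fibroblasts (MEFs) of 3 genotypes. The members were all genes whose symbol in the array's annotation is Col, a number, a and a number, 44 in all, without Col2a1 and Col9a1, which belong to cartilage. They are 42 of the 19937 genes with a probe set of a single gene symbol, and each was read on its brightest such probe set. The genotypes were wild type (WT), p27CK (CK) and p27KO (KO), with 3 arrays each. Cultures in 10% serum were deprived of serum for 72 h before RNA was taken, a treatment under which fibroblasts stop dividing. p27 is the cyclin-dependent kinase inhibitor encoded by Cdkn1b. In published work p27CK is a p27 protein changed so that it does not bind cyclins and their kinases, whereas the labels give only the name. The extraction protocol given for every sample speaks of wild-type or delta51 mice, without saying which cells delta51 stands for. Nothing in the labels ties the 3 arrays of a group to different embryos or dishes. The p-values therefore measure the spread between arrays, possibly a technical one, and effects of genotype and of culture cannot be told apart.

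A collagen molecule is a trimer of chains wound into a triple helix, built of glycine-rich repeats. Fibrillar collagens assemble into the banded fibrils of connective tissue, and type I, with type III and type V, makes up most of the fibrils that fibroblasts lay down. Type IV forms the sheet of basement membranes, types VIII and X form hexagonal lattices, type VI forms beaded filaments around cells, FACIT collagens sit on the surface of fibrils, multiplexins carry the endostatin region, and the transmembrane collagens stay anchored in the cell membrane. Before secretion the chains are hydroxylated and folded in the endoplasmic reticulum, and outside the cell their ends are trimmed and lysyl oxidases cross-link them.

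The collagen genes did not move as one block. In KO, 15 of 39 tested members fell and 6 rose against WT. The deepest falls were those of the transmembrane chain Col23a1 (11.7-fold) and of Col18a1 (8.94-fold), while Col11a1, a minor fibrillar chain of cartilage, rose 3.29-fold. In CK, 10 fell and 9 rose, with Col23a1 again lowest against WT (9.83-fold) and Col12a1, a FACIT chain, raised 2.78-fold. Against each other, CK read higher than KO for 16 members, among them Col1a1, Col1a2, Col3a1 and the 3 main chains of type VI, and lower for 9, led by Col11a1. These counts are calls of limma at a Benjamini-Hochberg adjusted p under 0.05 over all genes tested, and values throughout are log2 RMA expression values, so a difference of 1 is 2-fold.

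Calls were frequent among all genes, which sets the scale for these counts. Between KO and WT limma called 51.2% of the 11962 genes tested, against 53.8% of the tested members. Members called higher were 15.4%, against 26.6% of all genes, and members called lower 38.5%, against 24.6%. Between CK and WT the shares were 48.7% of members and 62.9% of all genes. There 23.1% of members were called higher, against 30.7% of all genes, and 25.6% lower, against 32.1%. CK against KO gave 64.1% and 62.2%, and the F-test over the 3 genotypes 66.7% and 76.1%. By direction, 41.0% of members were higher in CK than in KO, against 29.5% of all genes, and 23.1% lower, against 32.7%. A call at this level is therefore common. In this fit the share of members called in either direction stood near that of all genes or below it in each comparison. By direction it stood above for members lower in KO than in WT and for members higher in CK than in KO. A difference of at least 2-fold was rarer. It was reached, with a call, by 7 of 39 members in KO against WT (17.9%, against 8.77% of all genes), by 6 in CK against WT (15.4%, against 10.8%) and by 3 in CK against KO (7.69%, against 12.4%). By direction these were 1 higher and 6 lower in KO (3.36% and 5.41% of all genes), 1 higher and 5 lower in CK (5.01% and 5.8%), and 2 higher and 1 lower in CK against KO (7.06% and 5.38%). The arrays of the groups did not overlap for 22 of 39 members between KO and WT, 20 between CK and WT and 27 between CK and KO, against 60.9%, 67.3% and 67.5% of all genes. The median difference over tested members was -0.02 in KO, -0.03 in CK and 0.00 in CK against KO, beside 0.01, -0.01 and -0.02 over all genes tested.

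A filter removed genes whose mean over the 9 arrays lay below 7.24, the 40th percentile of gene means. It left out 3 members, Col19a1 (mean 6.96), Col4a6 (6.99) and Col28a1 (7.07), and Col6a5 (7.28), Col15a1 (7.31) and Col17a1 (7.36) lay just above it. A gene can pass through 1 genotype in which it is high, so the counts over tested members depend in part on the differences. Without any filter all 42 members were tested, and limma called 14 lower and 6 higher in KO, 10 lower and 9 higher in CK, and 16 higher and 8 lower in CK against KO. In that fit 33.7%, 42.3% and 41.5% of all genes were called in these comparisons, against 47.6%, 45.2% and 57.1% of the members. By direction, 17.2% of all genes were higher and 16.4% lower in KO, 20.7% and 21.6% in CK, and 19.9% and 21.6% in CK against KO.

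**Figure D1:**
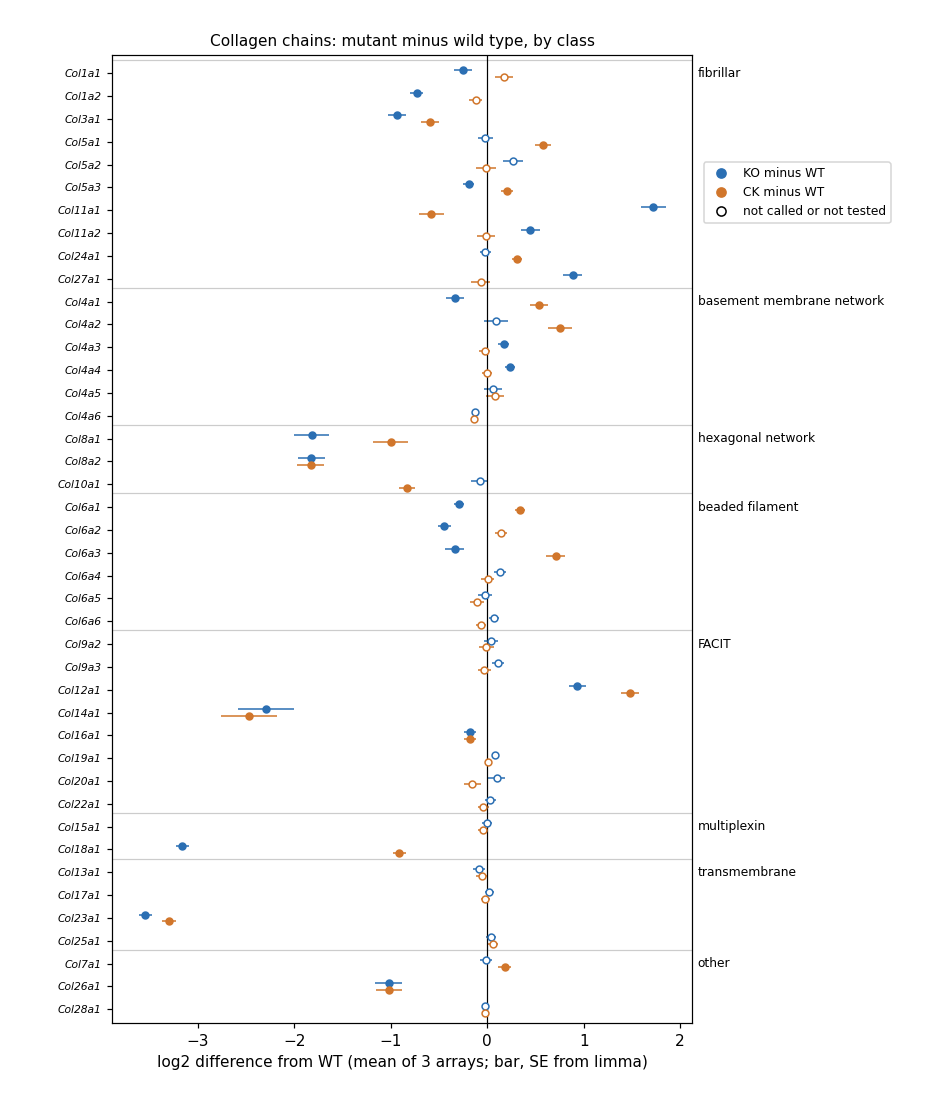
Log2 difference from WT of all 42 collagen chains, grouped by class, for KO (blue) and CK (orange); points are differences of means of 3 arrays, bars the standard error from limma, and open points were not called or not tested. Col23a1, Col18a1, Col14a1, Col8a1 and Col8a2 lie farthest to the left, Col11a1 in KO and Col12a1 in CK farthest to the right, and the dim members sit close to 0.

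The arrays themselves and the identity of the cells bear on these values. Cdkn1b read 11.46 (WT), 11.10 (CK) and 7.38 (KO), a 17-fold fall in KO. Array medians lay between 7.29 and 7.40. WT replicate 3 was the lowest WT array for 23 of the 39 tested members, against 49.6% of all genes tested, and for 17 of the 19 members with a WT mean of 9 or more, so the results below are also given without it where that matters. Without it the counts were 15 lower and 6 higher in KO and 11 lower and 9 higher in CK. Of 7 fibroblast markers, 5 fell and 1 rose in KO (limma), and 3 fell and 2 rose in CK. Thy1 had means of 11.73 (WT), 11.69 (CK) and 7.14 (KO), Pdgfra of 13.05, 12.32 and 11.73, and S100a4 of 12.13, 11.03 and 11.09, so that Pdgfra was 2.5-fold and S100a4 2.06-fold lower in KO. Fn1 rose in both mutants, and Vim was called in neither. Of 12 chondrocyte markers 11 were tested and all of these rose in KO. Means were below 7.24 for 4 of the 12 in WT (Acan, Comp, Matn1 and Ucma), 6 in CK and 1 in KO. Acan, Comp and Matn1, below it in both WT and CK, were tested only through their KO level, so this count depends in part on the filter. Hapln1, which was below the filter over all arrays, went the other way, from 7.77 in WT to 6.21 in KO (adjusted p = 0.000997 without the filter). The summed linear level of the list was 14545 to 15157 in WT, 3363 to 3667 in CK and 45263 to 51727 in KO. Cnmd, the brightest in WT, read 13.33 (WT), 7.30 (CK) and 13.85 (KO). In CK 1 of these markers rose and 6 fell. Whether the fibroblast or cartilage markers had a part in the collagen differences was not tested, and in bulk RNA fewer cells of a type and less RNA per cell cannot be told apart. Markers of other cells moved in both directions. Endothelial markers were below 7.24 for 5 of 6 genes in WT and 6 of 6 in CK and KO (Tek 8.77 in WT, 6.51 in CK and 6.80 in KO). Of 6 macrophage markers, Ptprc, Adgre1 and Csf1r were below it in every genotype, Cd68 fell from 10.64 in WT to 8.59 in CK and 7.99 in KO, and Lyz2 rose from 6.90 to 7.59 and 8.83. Cd14 had means of 7.87, 6.69 and 6.66 in WT, CK and KO, and the osteoblast factor Sp7 of 8.86, 6.21 and 6.32. Of 6 smooth muscle and pericyte markers, Des, Myh11 and Rgs5 were below 7.24 throughout, Acta2 rose from 12.98 in WT to 13.30 in KO, and Cnn1 rose from 8.65 to 9.79 in CK and fell to 7.98 in KO. Of 5 adipocyte markers, 3 fell and 0 rose in KO, and 2 fell and 1 rose in CK. The summed linear levels in WT, CK and KO were 901 to 994, 542 to 587 and 554 to 575 for endothelial, 2053 to 2230, 848 to 900 and 940 to 1108 for macrophage, and 1058 to 1119, 347 to 406 and 386 to 405 for osteoblast markers. They were 9799 to 9954, 9460 to 9769 and 11482 to 12348 for smooth muscle and 2713 to 3049, 1291 to 1393 and 1822 to 1945 for adipocyte markers. Their part in the collagen differences was not tested.

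Both chains left out of the group are cartilage collagens and were higher in KO. Col2a1, the main fibrillar collagen of cartilage, read 9.50, 9.43 and 9.48 in WT, 9.04, 9.08 and 9.01 in CK and 12.56, 12.56 and 12.89 in KO. Col9a1, a FACIT chain on cartilage fibrils, read 7.25 (WT), 7.20 (CK) and 9.37 (KO). Of the cartilage-associated chains that stayed in the group, Col11a1, Col11a2 and Col27a1 rose in KO, whereas Col9a2, Col9a3 and Col10a1, a chain of hypertrophic cartilage, were not called (log2 differences 0.04, 0.11 and -0.08).

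Among fibrillar chains, those of types I and III were lower in KO, and those of types XI and XXVII higher. Col1a2, the second chain of type I collagen, read 13.31, 13.24 and 13.08 in WT, 13.11, 13.08 and 13.08 in CK and 12.52, 12.53 and 12.39 in KO. All KO arrays lay below all others, while WT and CK overlapped. Col1a2 fell by 0.73 in KO (SE 0.07, limma adjusted p = 6.55e-06) and was not called in CK (log2 difference -0.12, adjusted p = 0.142; without WT replicate 3, -0.19 and adjusted p = 0.0259). Its partner Col1a1 read 13.03, 13.03 and 12.68 in WT, 13.20, 13.02 and 13.03 in CK and 12.64, 12.73 and 12.61 in KO, so that KO overlapped WT through WT replicate 3. The KO difference of -0.25 was called (adjusted p = 0.047), but not without the filter on dim genes (adjusted p = 0.074), with arrays centred (0.121), with KO and WT arrays alone (0.0639), or without WT replicate 1 (0.166) or 2 (0.16), any KO array (0.0593 to 0.114), CK replicate 2 (0.0583) or CK replicate 3 (0.0571). Without WT replicate 3 the KO difference of Col1a1 was -0.37 and called (limma adjusted p = 0.00221). CK lay above KO on all arrays for Col1a1, by 0.42 (adjusted p = 0.00274).

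Col3a1, the chain of type III collagen, which is found in the fibrils of extensible tissues, fell in both mutants. It read 12.05, 12.10 and 11.70 in WT, 11.43, 11.36 and 11.28 in CK and 11.04, 11.05 and 10.95 in KO. The genotypes did not overlap, and the order was KO below CK below WT. The differences were -0.94 in KO (SE 0.10, adjusted p = 1.49e-05), -0.59 in CK (adjusted p = 0.000299) and 0.34 for CK over KO (adjusted p = 0.00995). Col5a2, the next protein-coding gene to Col3a1 on chromosome 1, did not follow it. Col5a2, a type V chain that helps to set fibril diameter, read 10.87, 10.86 and 10.55 in WT, 10.75, 10.69 and 10.81 in CK and 10.91, 10.95 and 11.23 in KO, with differences of 0.27 in KO (adjusted p = 0.0541) and -0.01 in CK. Its KO arrays lay above all WT arrays. The KO difference was called with a filter at the 60th percentile (adjusted p = 0.0468), centred arrays (0.0412), an intensity trend in the variance (0.049) or without KO replicate 1 (0.0429), but was 0.16 without WT replicate 3 (adjusted p = 0.196). The CK difference was -0.12 without WT replicate 3 and turned positive without WT replicate 1 or 2 or CK replicate 2, or with centred arrays. Its difference between CK and KO, -0.28 (adjusted p = 0.0383), was -0.18 without KO replicate 3 (adjusted p = 0.139) and also lost its call without the filter, with the replicate block or without any single CK array.

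The other chains of type V went a different way. Col5a1 read 9.65, 9.64 and 9.37 in WT, 10.14, 10.05 and 10.20 in CK and 9.56, 9.58 and 9.47 in KO. CK stood above both other genotypes, by 0.58 over WT (SE 0.08, adjusted p = 0.000104) and 0.60 over KO (adjusted p = 8.03e-05), and KO overlapped WT. Col5a3 rose by 0.21 in CK and fell by 0.19 in KO. Its 3 WT values were identical (8.11), so its measured spread came from the CK and KO arrays alone. Such ties within a genotype were found for 941 of the 19937 genes. Col24a1, a fibrillar chain known from bone, rose by 0.31 in CK and differed by -0.02 in KO.

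Col11a1, which forms the core of cartilage fibrils together with type II collagen, had the largest rise of any member in KO. It read 10.66, 10.61 and 10.19 in WT, 9.86, 9.85 and 10.02 in CK and 12.11, 12.09 and 12.42 in KO. The genotypes did not overlap. It rose by 1.72 in KO (SE 0.13, adjusted p = 1.32e-06), fell by 0.58 in CK (adjusted p = 0.00263), and so differed 4.91-fold between the mutants. Its partner Col11a2 rose by 0.45 in KO, from 8.11 to 8.55. Col27a1, a fibrillar chain of cartilage, read 9.07, 8.91 and 9.07 in WT, 9.02, 8.97 and 8.86 in CK and 9.79, 9.80 and 10.13 in KO. KO lay above both, by 0.89 over WT (SE 0.10, adjusted p = 2.21e-05), while CK overlapped WT. The tested chondrocyte markers above also rose in KO, whereas Hapln1, below the filter, fell.

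The promoters of Col3a1 and Col11a1 are shown because these fibrillar genes moved in opposite directions in KO. Sequences were taken from RefSeq (GRCm38.p6) and end just before the annotated start of the gene. That of Col3a1 lies at chr1:45311288-45311537 on the plus strand and that of Col11a1 at chr3:114030290-114030478 on the plus strand, the latter shortened by 61 bases that fall within the annotated gene. Capitals mark matches, on either strand, to 4 motifs: the letters TATAAA of a TATA box, the letters CCAAT of a CCAAT box, the letters GGGCGG of a GC box, and the letters TGACTCA of an AP-1 site.
Col3a1: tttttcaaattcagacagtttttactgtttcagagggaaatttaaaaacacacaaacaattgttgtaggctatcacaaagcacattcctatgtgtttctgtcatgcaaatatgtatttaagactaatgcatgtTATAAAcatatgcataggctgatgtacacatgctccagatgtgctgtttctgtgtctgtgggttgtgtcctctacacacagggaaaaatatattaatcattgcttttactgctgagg
Col11a1: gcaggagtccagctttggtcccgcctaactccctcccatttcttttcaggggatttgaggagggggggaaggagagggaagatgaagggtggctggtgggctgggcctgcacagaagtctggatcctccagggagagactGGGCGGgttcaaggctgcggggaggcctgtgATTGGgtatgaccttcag
The Col3a1 stretch held 1 TATAAA and had a GC content of 35.2%, and the Col11a1 stretch held 1 CCAAT and 1 GGGCGG and had a GC content of 60.3%. Of 32851 mouse promoters of 250 bases, 12.4% held TATAAA, 33.8% CCAAT, 32.7% GGGCGG and 4.46% TGACTCA. Promoters of 34 members were in the table, 36 in all, and 5, 12, 22 and 1 of them held these letters.

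Basement membrane chains Col4a1 and Col4a2, which together form the common type IV trimer, rose together in CK. Col4a1 read 10.00, 9.95 and 9.64 in WT, 10.52, 10.34 and 10.33 in CK and 9.53, 9.57 and 9.49 in KO. Col4a2 read 10.15, 10.04 and 9.61 in WT, 10.79, 10.51 and 10.76 in CK and 10.05, 10.06 and 9.97 in KO. For both genes each CK array lay above every WT and KO array. Col4a1 rose by 0.54 in CK (SE 0.09, adjusted p = 0.000504) and Col4a2 by 0.76 (SE 0.13, adjusted p = 0.000374). Of this pair Col4a1 alone was called in KO, at -0.34 (adjusted p = 0.0118; without WT replicate 1, -0.27 and adjusted p = 0.0524), whereas the KO arrays of Col4a2 overlapped WT and its difference of 0.09 (adjusted p = 0.575) turned to -0.07 without WT replicate 3.

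These genes lie next to each other on chromosome 8, on opposite strands. The starts given for them in RefSeq bound the 22 bases below (GRCm38.p6, chr8:11312805-11312826, plus strand). Col4a1 starts at 11312826 on the minus strand and Col4a2 at 11312805 on the plus strand. The bases are shown because both genes are read across them, so that the annotated first bases of the pair overlap.
Col4a1 and Col4a2: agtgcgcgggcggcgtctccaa
The stretch holds 16 G or C bases. Motifs were not marked in it, although it contains gggcgg, the letters of a GC box. The remaining type IV genes also lie in adjacent pairs, Col4a3 with Col4a4 on chromosome 1 and Col4a5 with Col4a6 on the X chromosome. Col4a3 and Col4a4, chains of specialised basement membranes such as that of the kidney glomerulus, rose in KO by 0.17 and 0.24 from WT levels of 7.59 and 7.43, close to the filter, and were not called in CK. Col4a5 was not called in any comparison, with differences between 0.02 and 0.08.

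Type VIII chains, which form a hexagonal lattice in the membrane under the corneal endothelium and in vessel walls, fell in both mutants. Col8a1 read 12.78, 12.77 and 12.41 in WT, 11.63, 11.57 and 11.76 in CK and 10.61, 10.56 and 11.32 in KO. The genotypes did not overlap, and KO replicate 3 stood between the other KO arrays and CK. The differences were -1.82 in KO (SE 0.18, adjusted p = 1.21e-05) and -1.0 in CK (adjusted p = 0.000672), and CK was higher than KO by 0.82 (adjusted p = 0.00249). Col8a2 read 9.16, 9.40 and 8.69 in WT, 7.20, 7.30 and 7.26 in CK and 7.17, 7.32 and 7.30 in KO. All mutant arrays lay near the filter of 7.24 and below every WT array, and CK and KO overlapped. Its differences, -1.82 in KO and -1.83 in CK (SE 0.14 for each), are those of the measured values, since a level near the filter may be background. Col10a1 read 8.61 (WT), 7.78 (CK) and 8.53 (KO), and fell by 0.83 in CK (SE 0.09, adjusted p = 1.09e-05).

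The promoters of Col8a1 (chr16:57754738-57754987, minus strand) and Col8a2 (chr4:126286544-126286793, plus strand; both GRCm38.p6, from RefSeq) are given because these chains belong to 1 collagen type and fell in both mutants. Capitals mark matches to the same motifs.
Col8a1: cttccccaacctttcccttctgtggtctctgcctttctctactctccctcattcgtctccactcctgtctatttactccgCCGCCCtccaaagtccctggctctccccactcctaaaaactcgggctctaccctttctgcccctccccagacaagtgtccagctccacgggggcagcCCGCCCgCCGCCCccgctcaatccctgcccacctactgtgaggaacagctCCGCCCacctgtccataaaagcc
Col8a2: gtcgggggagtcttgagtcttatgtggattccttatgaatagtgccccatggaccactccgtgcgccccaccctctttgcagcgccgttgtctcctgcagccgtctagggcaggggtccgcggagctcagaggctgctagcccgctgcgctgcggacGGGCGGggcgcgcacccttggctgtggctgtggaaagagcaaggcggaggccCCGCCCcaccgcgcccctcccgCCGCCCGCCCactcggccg
Each held 4 matches to GGGCGG on either strand, a pair of them overlapping in Col8a2, and none of the other motifs. Of all promoters 32.7% held at least 1 such match.

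The main chains of type VI collagen were low in KO and high in CK. Col6a1 read 12.34 on all 3 WT arrays, 12.74, 12.62 and 12.66 in CK and 12.04, 12.11 and 11.99 in KO. Col6a2 read 11.92, 11.88 and 11.76 in WT, 12.10, 11.95 and 11.93 in CK and 11.41, 11.42 and 11.39 in KO. Col6a3 read 11.21, 11.18 and 11.15 in WT, 12.11, 11.77 and 11.79 in CK and 10.93, 10.93 and 10.67 in KO. For all 3 genes the arrays fell in the order KO, WT, CK with no overlap between genotypes. In KO they fell by 0.29, 0.44 and 0.34 (adjusted p = 0.000965, 0.000187 and 0.015). The last of these calls was lost without KO replicate 3 (-0.25, adjusted p = 0.0521). In CK, Col6a1 rose by 0.34 and Col6a3 by 0.71 (SE 0.10, adjusted p = 9.68e-05), whereas Col6a2 differed by 0.14 (adjusted p = 0.0733), or 0.09 without WT replicate 3. CK exceeded KO by 0.63, 0.59 and 1.05, so that Col6a3 differed 2.07-fold. Col6a1 and Col6a2 are adjacent on chromosome 10, and Col6a3 lies on chromosome 1. Col6a4, Col6a5 and Col6a6, neighbours on chromosome 9, read between 7.18 and 8.25 on all arrays, and of their 9 differences Col6a6 in CK against KO was called (-0.14, adjusted p = 0.0411).

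Among FACIT collagens, which lie on fibrils and link them to the surrounding matrix, Col12a1 and Col14a1 went in opposite directions. Col12a1 read 12.07, 12.07 and 11.75 in WT, 13.48, 13.41 and 13.43 in CK and 12.95, 12.98 and 12.76 in KO. The genotypes did not overlap, in the order WT, KO, CK. It rose by 0.93 in KO (SE 0.09, adjusted p = 1.09e-05) and by 1.48 in CK (adjusted p = 2.4e-07), and it was the only tested member called higher in both mutants. Col14a1 read 10.22, 10.34 and 8.92 in WT, 7.42, 7.37 and 7.29 in CK and 7.50, 7.52 and 7.59 in KO. WT replicate 3 stood more than 1 unit below the other WT arrays, yet above every mutant array. The differences were -2.30 in KO and -2.47 in CK (SE 0.29 for each), and -2.75 and -2.92 without WT replicate 3. CK and KO were not called apart in the fit of all arrays (-0.17, adjusted p = 0.631), although their arrays did not overlap and the difference was called without WT replicate 3 (adjusted p = 0.026). Col16a1 fell by 0.18 in both mutants. Col20a1 was called between CK and KO (-0.25), and Col22a1, Col9a2 and Col9a3 were called in no comparison.

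Col18a1, a multiplexin of basement membranes whose end piece is endostatin, separated the mutants more than any member but Col11a1. It read 10.88, 10.88 and 10.71 in WT, 9.92, 9.88 and 9.93 in CK and 7.67, 7.55 and 7.76 in KO. The genotypes did not overlap. It fell by 3.16 in KO (SE 0.07, adjusted p = 1.19e-10) and by 0.91 in CK (adjusted p = 1.15e-06), and CK was 4.76-fold above KO (adjusted p = 1.02e-09). The other multiplexin, Col15a1, read between 7.24 and 7.39 on all arrays and was not called. The promoter of Col18a1 at its outermost annotated start (chr10:77166531-77166780, minus strand, GRCm38.p6, RefSeq) is shown because of this graded fall.
Col18a1: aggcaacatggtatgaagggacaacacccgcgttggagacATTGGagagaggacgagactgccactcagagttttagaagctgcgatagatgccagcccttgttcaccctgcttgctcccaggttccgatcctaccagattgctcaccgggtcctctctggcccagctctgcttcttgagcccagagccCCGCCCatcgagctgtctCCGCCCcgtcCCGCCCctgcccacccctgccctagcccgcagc
It held 1 CCAAT and 3 GGGCGG matches on either strand. Another annotated start lies within the gene, and the probe set does not tell which was used.

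Col23a1, a transmembrane collagen that can be shed from the cell surface, had the deepest fall in each mutant. It read 11.54, 11.51 and 11.58 in WT, 8.31, 8.27 and 8.16 in CK and 8.02, 7.86 and 8.12 in KO. All mutant arrays lay more than 3 units below WT, and KO lay below CK without overlap. It fell by 3.54 in KO (SE 0.07, adjusted p = 6.51e-11) and in CK the difference was -3.30 (SE 0.07, adjusted p = 1.45e-10). The difference of 0.25 between CK and KO was called (adjusted p = 0.0121), but not without KO replicate 2 (0.18, adjusted p = 0.0505). The transmembrane chains Col13a1, Col17a1 and Col25a1 were called in no comparison and differed by at most 0.09. Of the remaining chains, Col26a1 read 9.71, 9.35 and 9.00 in WT, 8.32, 8.38 and 8.31 in CK and 8.38, 8.27 and 8.35 in KO. The WT arrays were widely spread but above all mutant arrays, and it fell by 1.02 in both mutants (SE 0.14; adjusted p = 0.000122 in KO and 8.74e-05 in CK). Col7a1, which forms the anchoring fibrils beneath the epidermis, rose by 0.18 in CK.

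**Figure D2:**
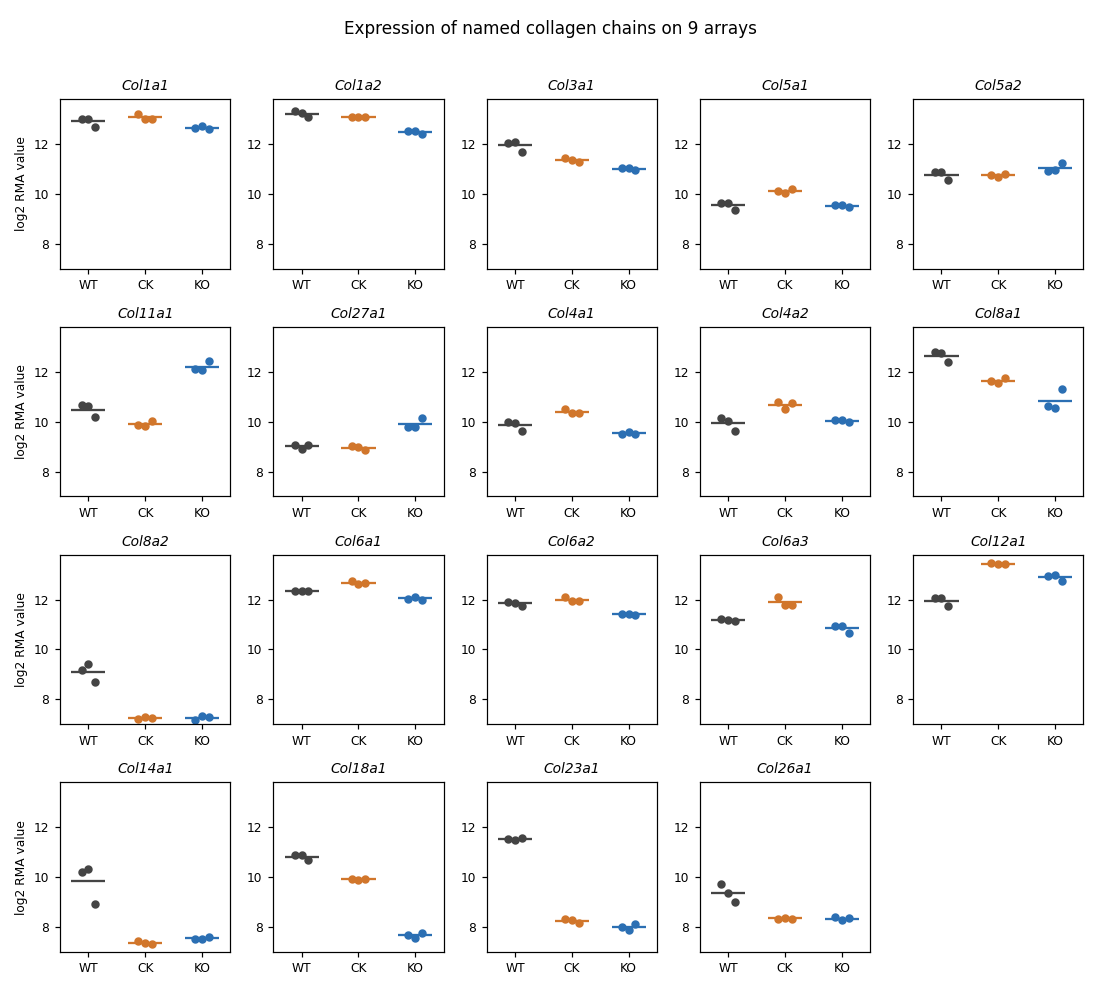
Log2 RMA values of 19 named collagen chains on each of the 9 arrays (points; x axis, genotype) with the mean of 3 arrays (line), all on the same scale. Col18a1 steps down from WT to CK to KO, Col23a1 and Col8a2 are low in both mutants, Col11a1 and Col27a1 are high in KO, and Col12a1 is above WT in both mutants.

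Read together, the calls in KO and CK sorted the 39 tested members into a few patterns. KO and CK are set against the same WT arrays, so their calls are not independent. Of all genes tested, 51.2% were called in KO and 62.9% in CK. The patterns were not counted over all genes, so whether their sizes are particular to collagens was not tested. Against WT, 8 members fell in both mutants (Col3a1, Col8a1, Col8a2, Col14a1, Col16a1, Col18a1, Col23a1 and Col26a1) and Col12a1 rose in both. Another 4 fell in KO and rose in CK (Col4a1, Col5a3, Col6a1 and Col6a3), and Col11a1 did the reverse. In KO alone 3 were called lower (Col1a1, Col1a2 and Col6a2) and 4 higher (Col4a3, Col4a4, Col11a2 and Col27a1). In CK alone 4 were called higher (Col4a2, Col5a1, Col7a1 and Col24a1) and 1 lower (Col10a1), and 13 were called in neither. A member called in 1 mutant and not in the other is not thereby shown to differ between them. The direct comparison of CK with KO called all of those named here as moving in 1 mutant alone.

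The direct comparison of the mutants called the largest share of chains in the fibrillar class. All 10 fibrillar chains were called between CK and KO, 6 higher in CK (Col1a1, Col1a2, Col3a1, Col5a1, Col5a3 and Col24a1) and 4 lower (Col5a2, Col11a1, Col11a2 and Col27a1). Of these, 1 (Col11a1) differed at least 2-fold. The call for Col5a2 (limma adjusted p = 0.0383) was lost without the filter on dim genes (0.0637) and in other settings given above. Between CK and KO 62.2% of all genes were called and for 67.5% the arrays did not overlap, as they did not for all 10 of these chains. Of 6 type VI chains 3 were higher in CK and 1 lower, and of 5 tested type IV chains 2 were higher and 2 lower. Of 7 tested FACIT chains 1 was higher and 1 lower.

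**Figure D3:**
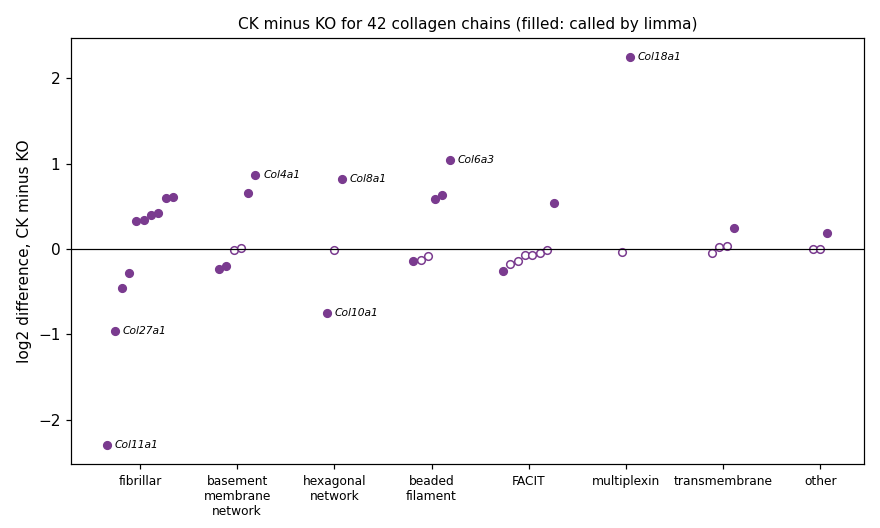
Log2 difference between CK and KO (y axis) of all 42 collagen chains by class (x axis), each point 1 chain, filled where limma called it; chains that differ by 0.75 or more are named. Col18a1 lies at 2.25 and Col11a1 at -2.30, and all 10 fibrillar chains are filled.

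Chains of 1 collagen type were also set against each other, for 6 pairs chosen after their values were seen. The log2 ratio of 2 chains was taken on each array, which shows unequal change and not the stoichiometry of the protein. Col1a2 over Col1a1 was 0.30 ± 0.09 (WT), 0.01 ± 0.09 (CK) and -0.18 ± 0.05 (KO) (SD, n = 3). No genotype overlapped another, and the ratio was lower than in WT by 0.29 in CK and 0.48 in KO. Col4a2 over Col4a1 was 0.07 ± 0.09 (WT), 0.29 ± 0.13 (CK) and 0.50 ± 0.02 (KO). Col5a2 over Col5a1 was 1.21 ± 0.02 (WT), 0.62 ± 0.01 (CK) and 1.49 ± 0.23 (KO). Col6a3 over Col6a1 was higher by 0.37 in CK and differed by -0.04 in KO (exact permutation p = 0.8). Col8a2 over Col8a1 was lower in CK by 0.83, while WT and KO overlapped (exact permutation p = 1). That Col8a2 value rests on mutant levels near the filter. Of the 18 differences, 3 for each of 6 pairs, 15 had the two-sided exact permutation p of 0.1, the smallest that 3 arrays against 3 can give, so none can pass 0.05 by this test (0.12 after Benjamini-Hochberg adjustment over the 18).

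**Figure D4:**
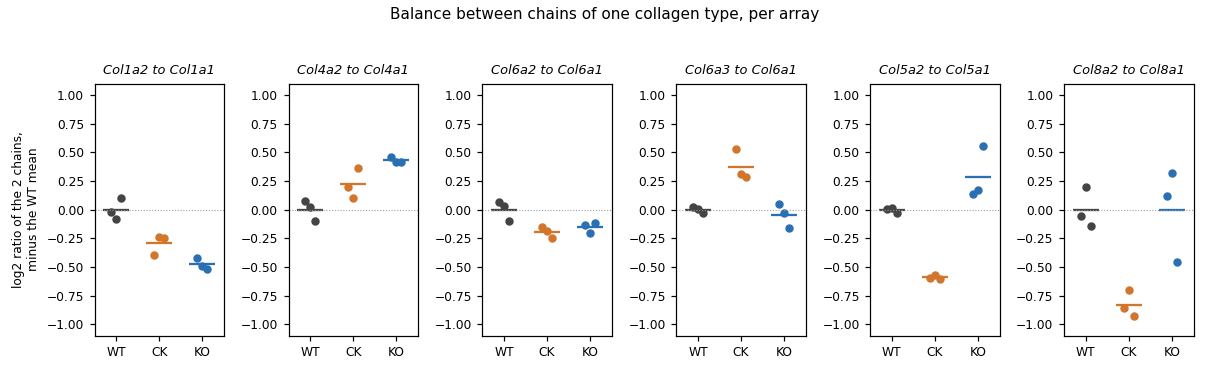
Log2 ratio of 2 chains of 1 collagen type on each array (points; x axis, genotype), less its WT mean, with the mean of 3 arrays (line), for 6 pairs. The ratio of Col1a2 to Col1a1 steps down from WT to CK to KO, that of Col4a2 to Col4a1 steps up, and that of Col5a2 to Col5a1 is low in CK.

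Genes that modify, export, process, cross-link and bind collagen were read beside the chains. Of 47 listed, 43 had a probe set of their own and 38 were tested. In KO 20 rose and 6 fell, in CK 12 rose and 12 fell, and against KO 8 were higher and 19 lower in CK (limma adjusted p under 0.05). The shares among all genes were 26.6% higher and 24.6% lower in KO, 30.7% and 32.1% in CK, and 29.5% and 32.7% in CK against KO. The median difference of the list was 0.21 in KO, 0.00 in CK and -0.19 in CK against KO.

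Prolyl hydroxylation and folding genes rose in KO and fell in CK where called. Of 12, 6 rose and 0 fell in KO, and 0 rose and 6 fell in CK. P3h1, a prolyl 3-hydroxylase, rose by 0.95 in KO (SE 0.07), and its partner Crtap and the related P3h4 each rose by 0.40. In CK, P4ha3, a catalytic subunit of prolyl 4-hydroxylase, fell by 1.41 (SE 0.08), P3h3 fell by 1.05 and P3h4 fell by 0.90. Named after their values were seen, the collagen chaperone Serpinh1, Ppib and P4hb were not called in any comparison. Among lysyl hydroxylases and collagen galactosyltransferases, Colgalt1 rose by 0.74, Plod2 by 0.60 and Plod3 by 0.21 in KO, while in CK Plod1 rose by 0.90, Plod3 by 0.36 and Plod2 fell by 0.63. Colgalt2, also named after its values were seen, was below the filter and not tested, with means of 6.06 (WT), 6.01 (CK) and 8.87 (KO).

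Export and propeptide removal gave mixed results. Tmem38b, an ion channel of the endoplasmic reticulum, rose by 0.75 in KO and 0.78 in CK. Mia3, which loads procollagen into transport carriers, rose by 0.30 in KO and fell by 0.28 in CK, and Sec24d rose by 0.31 in KO. Creb3l1, a transcription factor for collagen genes in bone, rose by 0.43 in CK. Pcolce2, an enhancer of procollagen C-proteinase, rose from 6.47 in WT to 8.63 in CK and 8.75 in KO. The C-proteinase Bmp1 fell by 0.47 in KO and rose by 0.29 in CK. Of the N-proteinases tested, Adamts14 rose by 0.53 in KO, whereas Adamts3 fell by 0.45 in KO (limma adjusted p = 0.00299) and was not called in CK (-0.24).

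All 4 lysyl oxidase genes tested changed in KO, in different directions. Loxl1 read 12.58, 12.48 and 12.48 in WT, 12.68, 12.81 and 12.66 in CK and 11.17, 11.07 and 11.20 in KO. It fell by 1.37 in KO (SE 0.06, adjusted p = 2.34e-08) and rose by 0.20 in CK. Lox fell by 0.68 in KO and was not called in CK (-0.09). Loxl3 fell by 1.11 in KO and 1.86 in CK, whereas Loxl4 rose by 2.28 in KO and 1.65 in CK (SE 0.09 for each). Against KO, CK was higher for Lox (0.59) and Loxl1 (1.57) and lower for Loxl3 (-0.75) and Loxl4 (-0.63).

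The collagen-binding integrins did not move alike: Itga1 and Itga2 rose in KO and fell in CK, while Itga11 rose in CK. Itga2 read 10.44, 10.44 and 10.41 in WT, 7.90, 7.87 and 7.95 in CK and 11.50, 11.52 and 11.62 in KO. The genotypes were far apart, with differences of 1.11 in KO and -2.53 in CK (SE 0.05 for each). Itga1, whose WT values were identical on all arrays (10.72) and so showed no spread, rose by 0.77 in KO and fell by 1.76 in CK. Itga10, an integrin subunit of chondrocytes, rose by 2.02 in KO and was not called in CK (0.04). Itga11, named after its values were seen, rose by 1.08 in CK (adjusted p = 0.000317), was not called in KO (0.12) and was higher in CK than in KO by 0.96. The receptor kinase Ddr1 rose by 0.39 in KO and 0.41 in CK. Mrc2, which takes up collagen fragments and was named after its values were seen, fell by 1.82 in KO. Between CK and KO the differences were -3.64 for Itga2, -2.53 for Itga1 and -1.97 for Itga10, beside -2.30 for Col11a1 and 2.25 for Col18a1.

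**Figure D5:**
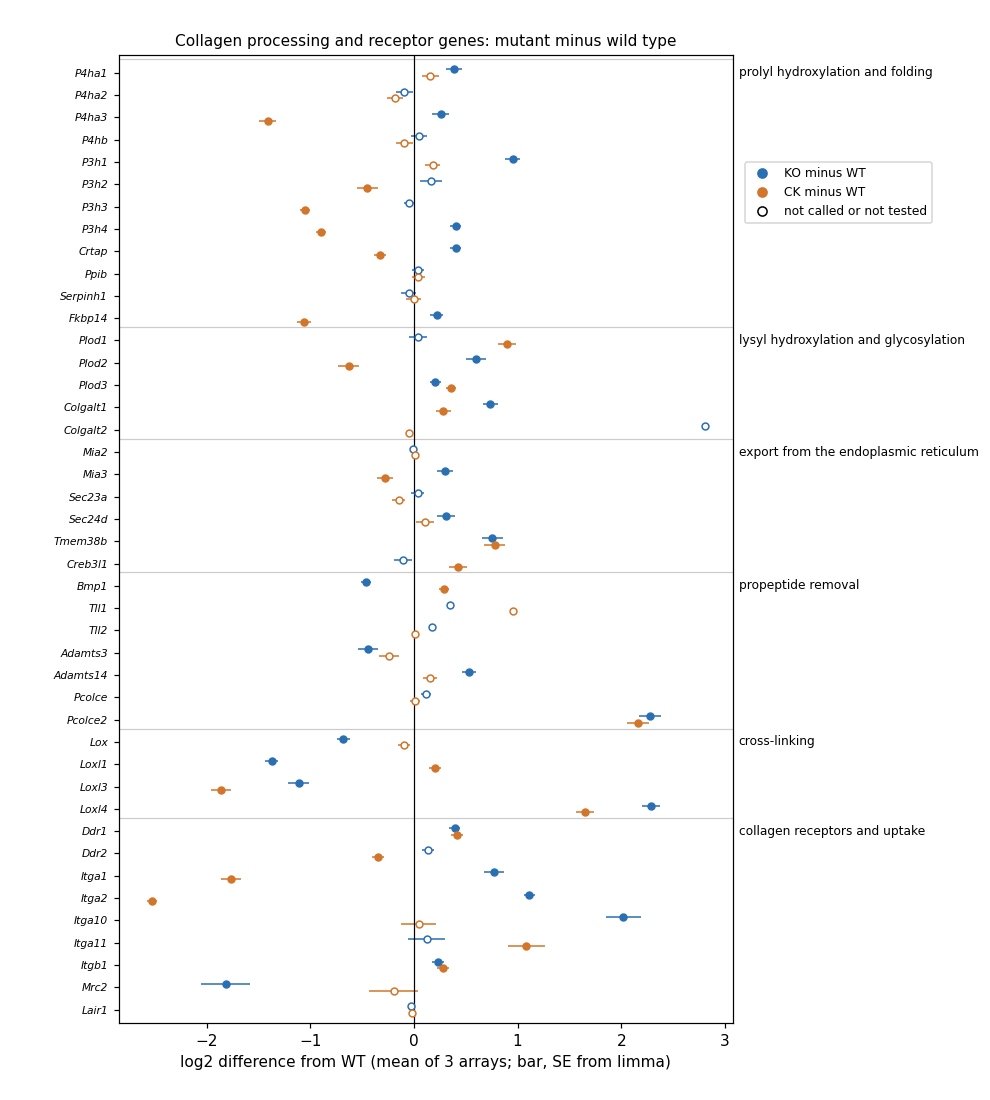
Log2 difference from WT of 43 genes that modify, export, process, cross-link or bind collagen, grouped by step, for KO (blue) and CK (orange); bars are the standard error from limma, and open points were not called or not tested. Itga1 and Itga2 lie to the right in KO and to the left in CK, and Loxl4 and Pcolce2 lie to the right in both.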

How the data were processed

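Per the submitters' processing notes, the authors used affy for RMA. This method subtracts background, gives all arrays 1 distribution and condenses probes into log2 values, so a change in total RNA per cell is not seen. Versions and annotation are not given in the sources used here. All values of the deposited table were digit strings that had lost their decimal mark. Strings starting with 1 were read as 10 or more and all others as below 10, giving log2 values from 4.28 to 14.4.

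Gene symbols came from the platform annotation. Genotypes were tested in limma 3.58.1 (R 4.3.3) by fitting a mean for each of them to the 9 arrays (6 residual and 4.1 prior degrees of freedom), and Benjamini-Hochberg adjustment over the 11962 genes at or above the 40th percentile of gene means. The fit was tested on simulated data. Values on each array are given for the main chains of types I, III, IV, V and VI and the 6 largest called, non-overlapping differences per comparison, and pathway genes by smallest p (3 per sub-list and comparison). The members and lists were chosen with earlier results of these data known. The number of arrays limits precision. The main fit did not pair arrays by replicate number. Alternatives were other filters, probe sets, scalings, variance models, thresholds, samples and the replicate block.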

Additional observations from a re-analysis of the deposited data

How the results depend on the processing

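Of 1074 values of named members' differences under other settings, 1032 kept their direction and their side of the threshold, 19 lost a call, 7 gained one and 16 changed sign. None of the sign changes involved a call. With centred arrays Col5a1 in KO versus WT turned to 0.0078, Col5a2 in CK versus WT to 0.0068 and Col26a1 in CK versus KO to -0.0053, and the last was -0.0060 with repeated quantile normalization. Leaving out single arrays gave -0.067 (without WT replicate 3) to 0.20 for Col4a2 and -0.11 to 0.029 for Col5a1 in KO versus WT, -0.12 to 0.042 for Col5a2 in CK versus WT, and -0.054 to 0.021 for Col8a2 and -0.026 to 0.027 for Col26a1 in CK versus KO. Calls changed for Col1a1, Col5a2, Col4a1 and Col6a3 in KO versus WT, Col1a2 in CK versus WT, and Col5a2, Col14a1 and Col23a1 in CK versus KO. Limiting the calls to differences of at least 2-fold left 1 member higher and 6 lower in KO, 1 higher and 5 lower in CK, and 2 higher and 1 lower in CK against KO. For pathway genes it left 4 and 3, 3 and 6, and 2 and 8. A filter at the 60th percentile, which tests fewer genes, left 5 members lower in CK versus WT, 3 lower in CK versus KO and 16 of 26 in the F-test. An adjusted p under 0.01 left 5 lower in CK versus KO. Leaving out each array in turn gave 12 to 15 members lower in KO versus WT, 9 to 11 lower in CK versus WT, 6 to 10 lower in CK versus KO and 23 to 27 in the F-test.

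Same-numbered arrays of different genotypes deviated together in some pairs and apart in others (correlations from -0.303 to 0.361). Between KO and WT the same-numbered pairs were all positive (0.05, 0.249 and 0.361), and the other pairs ran from -0.339 to 0.252. Same-numbered pairs with CK ran from -0.303 to 0.0515. Whether the numbers pair the arrays is not settled by these values. With the replicate number as a block, 6 members were higher and 15 lower in KO, 8 and 10 in CK, 16 and 7 in CK against KO, and 26 in the F-test. Centring the arrays moved the median over genes by at most 0.03. The arrays have no detection calls, so differences of members near 7.24 may be compressed by background.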
